A study of Homo sapiens with 6 samples.

Results

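Aldehyde dehydrogenases were compared between prostate cancer cells that had become resistant to enzalutamide, an antagonist of the androgen receptor, and the parental cells from which they were derived. A set of 10 genes was taken from the 58024 genes of the expression table by their gene symbols: ALDH1A1, ALDH1A2, ALDH1A3, ALDH1B1, ALDH2, ALDH3A1, ALDH3A2, ALDH3B1, ALDH3B2 and ALDH7A1. ALDH3A2 was chosen by its strong increase in FPKM, the expression value of the table, in these same resistant libraries, so its values are given as a description without a test. C4-2B cells, called C42-B in the sample labels, descend from the LNCaP line through tumours grown in castrated nude mice. The resistant cells were C4-2B cells passaged in rising enzalutamide from 1 to 20 µM for at least 6 months and then kept in 5 µM enzalutamide, and the parental cells were passaged beside them with DMSO, which the labels give as 1%. The methods of the study state a lower share of vehicle. The labels place a 10 µM enzalutamide exposure before RNA extraction and name both cell populations there, so whether the parental cells received it is not clear. The resistant cells were pooled survivors and not a single clone. Both populations were grown in RPMI-1640 medium with serum, and each gave 3 RNA-Seq libraries, numbered 0, 1 and 2. The labels do not say whether these came from separate cultures, so p-values measure only the spread between these libraries, which may be technical.

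Aldehyde dehydrogenases oxidise reactive aldehydes to carboxylic acids with NAD or NADP as the electron acceptor. The ALDH1A enzymes turn retinal into retinoic acid, the ligand of nuclear retinoic acid receptors. ALDH2 and ALDH1B1 are mitochondrial and clear acetaldehyde, the ALDH3 enzymes act on fatty and aromatic aldehydes, and ALDH7A1 takes part in lysine breakdown. High aldehyde dehydrogenase activity is widely used to mark stem-like cells in prostate and other tumours.

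The values are FPKM, read fragments scaled by transcript length and by sequencing depth, so levels can be set side by side between genes. Totals per library were 792975 to 870110 FPKM, and the estimated depth was 13400000 to 20300000 reads. At that depth, 1 read on a transcript of 2000 bases is worth 0.0274 to 0.0415 FPKM. Resistant replicate 0 had 27153 genes above 0, against 21956 to 24080 in the other 5 libraries. The prostate luminal identity of the lines was visible in both groups, with HOXB13, a prostate homeobox factor, at 96.1 to 110 FPKM in parental and 97.8 to 105 FPKM in resistant libraries. The summed level of 9 luminal markers was 3959 to 4676 FPKM in parental and 1099 to 1210 FPKM in resistant libraries. The summed level of 6 neuroendocrine markers was 6.83 to 10.7 FPKM in parental and 189 to 211 FPKM in resistant libraries, and 4 of them rose, while INSM1, a neuroendocrine transcription factor, was at 0.0558 FPKM or less in every library. Basal, endothelial and immune markers summed to 1.86 FPKM or less in every library. Of the 6 fibroblast markers 2 rose (DCN and LUM) and 1 fell (PDGFRB). DCN was listed at 0 in every parental library and at 3.63, 3.78 and 4.35 FPKM in resistant libraries. LUM averaged 0.0604 FPKM in parental and 0.969 FPKM in resistant libraries, and PDGFRB 2.1 and 0.164 FPKM. COL1A1 and COL3A1 did not pass the test, and COL1A2 was too low to be tested, at 0.132 FPKM or less throughout. The fibroblast sums were 8.04 to 10.9 FPKM in parental and 8.34 to 15.0 FPKM in resistant libraries. The part of these shifts in the results below was not tested. Rose and fell stand for calls of the test given below, which called 22.1% of all genes tested higher and 22.3% lower. In bulk RNA, fewer cells expressing a gene and less RNA per cell cannot be told apart.

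ALDH3A2 encodes the fatty aldehyde dehydrogenase of the endoplasmic reticulum and peroxisomes, which oxidises long-chain aldehydes from sphingolipids, ether lipids and phytol, and whose loss causes Sjögren-Larsson syndrome. The gene lies on the plus strand of chromosome 17 (GRCh38, chr17:19648136-19685760). RefSeq places its transcript starts in a pair of windows, shown here because this gene was the member chosen by its increase. Each window covers 250 bases before a start and 50 after it (GRCh38.p14, plus strand), and capitals mark GCGTG, the core of the xenobiotic response element, found on either strand.
ALDH3A2 upstream start, chr17:19647886-19648185: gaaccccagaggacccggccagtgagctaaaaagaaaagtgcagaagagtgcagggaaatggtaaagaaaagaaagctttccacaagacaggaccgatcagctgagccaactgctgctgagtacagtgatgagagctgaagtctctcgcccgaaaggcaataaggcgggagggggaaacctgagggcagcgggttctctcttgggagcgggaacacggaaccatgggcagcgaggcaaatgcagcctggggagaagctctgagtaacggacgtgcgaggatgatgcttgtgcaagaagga
ALDH3A2 downstream start, chr17:19648501-19648800: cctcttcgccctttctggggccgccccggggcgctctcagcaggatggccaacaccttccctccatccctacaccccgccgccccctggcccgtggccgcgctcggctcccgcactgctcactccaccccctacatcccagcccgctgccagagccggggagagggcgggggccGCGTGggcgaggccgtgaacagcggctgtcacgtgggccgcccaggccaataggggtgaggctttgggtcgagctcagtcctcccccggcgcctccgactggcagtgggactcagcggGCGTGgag
The upstream window had a GC content of 55% with 12 CpG sites and no match, and the downstream window had 73.3% with 27 CpG sites and 2 matches, at bases 175 and 293. Of the 10 genes, 7 had a window in the RefSeq table (ALDH1A1, ALDH1A2, ALDH1A3, ALDH1B1, ALDH3A2, ALDH3B1 and ALDH7A1). GCGTG was present in 3 of these 7 (ALDH1A2, ALDH1A3 and ALDH3A2) and in 36.5% of all 35116 windows of the table. The former counts genes with a match in any window, and ALDH1A2, ALDH3A2 and ALDH3B1 each had an extra window. The latter counts single windows, so these shares are not measured alike. TGACNNNGC, the core of the antioxidant response element, was present in none of the 7 and in 13.3% of all windows, with both strands searched. These matches describe the letters of the windows only.

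ALDH3A2 stood at 71.0, 69.5 and 68.9 FPKM in parental replicates 0, 1 and 2, and at 789, 794 and 852 FPKM in the resistant replicates. Every resistant library was far above every parental library, and the spread within each group was small. The means were 69.8 ± 1.05 FPKM and 812 ± 35 FPKM (SD, n = 3 each), an 11.6-fold higher level, with a log2 fold change of 3.54. Among 19648 protein-coding genes ranked by FPKM within a library, ALDH3A2 was at rank 1762, 1729 and 1896 in the parental libraries and at rank 71, 83 and 71 in the resistant ones. The summed FPKM of the 10 genes was 217, 215 and 215 in parental and 841, 860 and 917 in resistant libraries. ALDH3A2 made up 32.1 to 32.7% of that sum in parental and 92.3 to 93.9% in resistant libraries. Without ALDH3A2 the sum of the remaining genes was 146 FPKM in each parental library, and 51.6, 66 and 65.1 FPKM in the resistant ones.

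**Figure D1:**
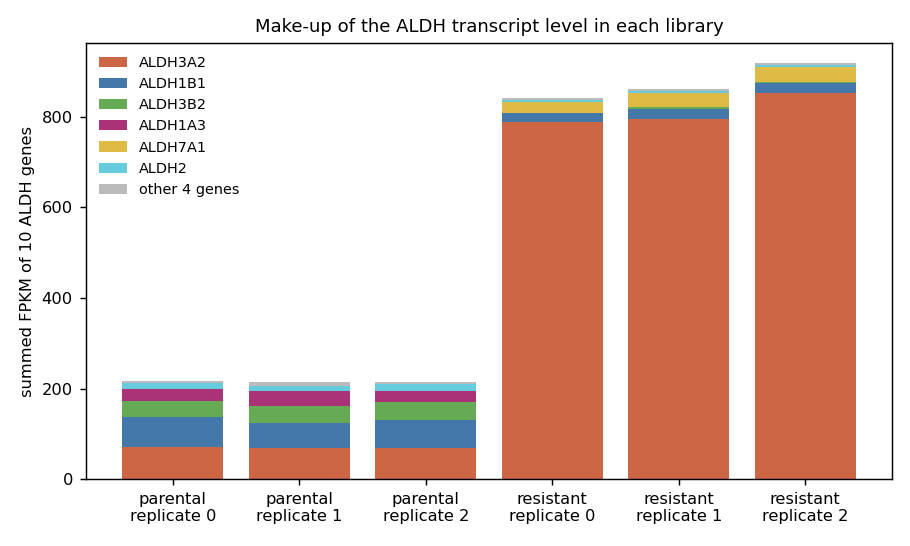
Stacked bars of FPKM for the aldehyde dehydrogenases in each of the 6 libraries, on a linear axis that starts at 0. ALDH3A2 fills 32.1 to 32.7% of the bar in parental libraries and 92.3 to 93.9% in resistant libraries, and the remaining genes together sum to 146 FPKM in each parental library and 51.6 to 66 FPKM in resistant libraries.

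Leaving ALDH3A2 aside, 2 of the 9 other genes rose in resistant cells (ALDH7A1 and ALDH3A1), 5 fell (ALDH1A2, ALDH1A3, ALDH1B1, ALDH2 and ALDH3B2) and 2 did not pass the test (ALDH1A1 and ALDH3B1). Calls were made with limma at a Benjamini-Hochberg adjusted p below 0.05 over 24468 genes, of which 22.1% were called higher and 22.3% lower. All 10 genes passed the filter, a mean of at least 0.1 FPKM over all libraries. ALDH3A1 (mean 0.0428 FPKM in parental and 0.348 FPKM in resistant libraries) passed only through the resistant libraries. So did ALDH1A1 (0.0287 and 0.178 FPKM). A call in the lower direction was therefore hardly possible for either gene. The median log2 fold change of the 9 genes was -1.5, and that of all genes tested was -0.05. The groups did not overlap for the 7 genes that rose or fell, ALDH3A1 among them, and for 54.8% of all genes tested. An exact permutation test on a single gene with 3 libraries against 3 cannot give a p below 0.1, so single genes rest on the fit over all genes.

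**Figure D2:**
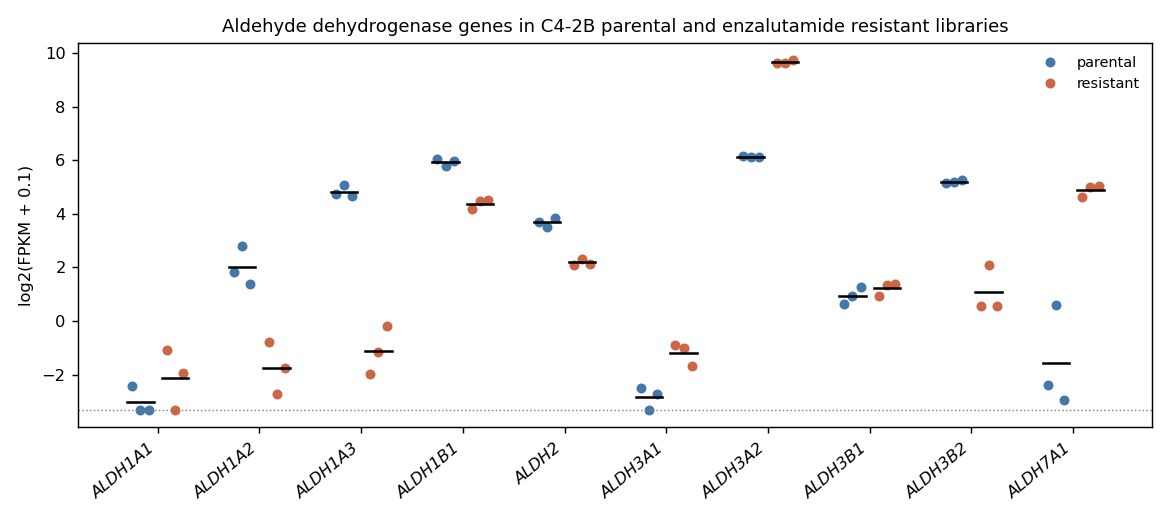
Level of each of the 10 aldehyde dehydrogenases as log2(FPKM + 0.1), with a point for each library, a black line for the mean of the log2 values and a dotted line where FPKM is 0. By mean FPKM, ALDH3A2 moved from 69.8 to 812 FPKM and ALDH7A1 from 0.513 to 29.8 FPKM, while ALDH1A3 moved from 28.4 to 0.422 FPKM and ALDH3B2 from 36.7 to 2.3 FPKM.

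Of the other ALDH3 genes, ALDH3B2 fell, ALDH3A1 rose at a level close to 0 and ALDH3B1 did not pass the test. ALDH3B2, a close paralogue of ALDH3B1 on the minus strand of chromosome 11 (chr11:67662155-67681224), was at 35.3, 36.5 and 38.3 FPKM in parental and at 1.37, 4.17 and 1.36 FPKM in resistant libraries. Resistant replicate 1 was the highest of its group, and the groups were widely separated. The level was 15.9-fold lower in resistant cells (36.7 ± 1.52 against 2.3 ± 1.62 FPKM, SD, n = 3 each; log2 fold change -4.13, SE 0.42, limma adjusted p = 0.000478). ALDH3B1, which oxidises aldehydes from lipid peroxidation, was at 1.47, 1.81 and 2.29 FPKM in parental and 1.83, 2.41 and 2.48 FPKM in resistant libraries. These groups overlapped, and the log2 difference of 0.27 (95% interval -0.35 to 0.89, limma adjusted p = 0.428) did not pass the test. A long non-coding RNA on the opposite strand, RP5-901A4.1, overlaps 4474 bases of ALDH3B1 and fell (1.24, 1.9 and 1.75 against 1.02, 0.573 and 0.38 FPKM; log2 fold change -1.26, limma adjusted p = 0.0433). Whether the quantification used the strand of the reads is not stated, so reads of the shared stretch may have been assigned to either gene.

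ALDH3A1, a cytosolic enzyme abundant in cornea and stomach, lies 52.2 kb beyond the end of ALDH3A2 on the opposite strand (chr17:19737984-19748943). It was at 0.0762, 0 and 0.0523 FPKM in parental and at 0.442, 0.393 and 0.21 FPKM in resistant libraries. The resistant values were all higher but amount to few reads. The log2 fold change was 1.65 (SE 0.48, limma adjusted p = 0.0305), and the call was lost with a pseudocount of 0.01 FPKM (adjusted p = 0.0506), with quantile normalization (log2 fold change 1.35, adjusted p = 0.0767) and with the replicate number as a block (adjusted p = 0.0767).

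ALDH3A2 was not the only gene of its neighbourhood with a higher level in resistant cells. SLC47A1, a proton-coupled exporter of organic cations, ends 69.1 kb before ALDH3A2 on the same strand and was at 0.0968, 0.222 and 0.432 FPKM in parental and 29.8, 44.7 and 35.4 FPKM in resistant libraries. Its log2 fold change was 6.81 (SE 0.39, limma adjusted p = 5.07e-05). AKAP10, an anchoring protein of protein kinase A, lies 219 kb beyond ALDH3A2 and fell, from 23.3, 32.4 and 24.8 FPKM to 15.4, 17.6 and 18.9 FPKM (log2 fold change -0.62, limma adjusted p = 0.0177). ULK2, an autophagy kinase, was at 13.6 to 19.4 FPKM in parental and 16.6 to 18.8 FPKM in resistant libraries (log2 difference 0.1, adjusted p = 0.616). RNF112 was at 0.37 FPKM or less in every library (log2 difference 0.1, adjusted p = 0.908). SLC47A2, whose end overlaps the annotated end of ALDH3A2 by 7473 bases on the opposite strand, was too low to be tested, with values of 0, 0.092 and 0 FPKM in parental and 0.167, 0 and 0 FPKM in resistant libraries. With ALDH3A1, these were the 6 annotated protein-coding genes within 250 kb.

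The 5 genes with the profile most like that of ALDH3A2 over the 6 libraries, by the root mean square difference of centred log2 values among genes averaging 1 FPKM or more, were LRRC8A, HIST1H2AE, CPLX1, FMNL1 and ITGA1, with differences of 0.073 to 0.126. LRRC8A, a subunit of the volume-regulated anion channel, was at 12.7, 11.3 and 12.7 FPKM in parental and at 128, 134 and 139 FPKM in resistant libraries. ITGA1, an integrin chain that binds collagen, was at 0.632, 0.713 and 0.673 FPKM against 7.36, 9.73 and 8.99 FPKM. The likeness was measured over 6 libraries in 2 groups with little spread within each, so it is mostly a match of fold change. These genes had log2 fold changes of 3.44 to 3.53, against 3.54 for ALDH3A2, which was chosen by that difference. The list therefore gives genes with an increase of similar size and does not measure shared behaviour within a group.

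Of the retinal dehydrogenases, ALDH1A3 and ALDH1A2 fell. ALDH1A3, on the plus strand of chromosome 15 (chr15:100877714-100916626), was at 26.6, 33.2 and 25.5 FPKM in parental and at 0.154, 0.343 and 0.77 FPKM in resistant libraries. No resistant library reached 1 FPKM. The level was 67.3-fold lower in resistant cells (28.4 ± 4.18 against 0.422 ± 0.316 FPKM, SD, n = 3 each), and the log2 fold change was -5.94 (SE 0.44, 95% interval -7.01 to -4.87, limma adjusted p = 0.000141). ALDH1A2, on the minus strand of the same chromosome, was at 3.47, 6.94 and 2.53 FPKM in parental and at 0.475, 0.0494 and 0.2 FPKM in resistant libraries. Parental replicate 1 was the highest library and resistant replicate 1 the lowest. Its log2 fold change was -3.77 (SE 0.61, limma adjusted p = 0.00313). ALDH1A1, the enzyme most often linked to stem-like cells, was near 0 in both groups, at 0.086, 0 and 0 FPKM in parental and 0.378, 0 and 0.157 FPKM in resistant libraries (log2 difference 0.91, 95% interval -0.8 to 2.62, limma adjusted p = 0.348).

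The ALDH1A3 locus carried a change of opposite sign on the other strand. The antisense RNA ALDH1A3-AS1, listed as RP11-66B24.4 and matched by its gene identifier, overlaps 24284 bases of ALDH1A3 and was at 0.0147, 0.0162 and 0 FPKM in parental and at 3.67, 5.02 and 3.41 FPKM in resistant libraries. It was therefore near 0 where ALDH1A3 was high, and above ALDH1A3 in each resistant library. Its log2 fold change was 5.21 (SE 0.33, limma adjusted p = 7.11e-05). LRRK1, a kinase gene whose RefSeq start is 74 bases from that of ALDH1A3-AS1, runs the other way. It was at 0.4, 1.18 and 1.52 FPKM against 3.94, 3.6 and 2.23 FPKM (log2 fold change 1.69, limma adjusted p = 0.0327). In GENCODE, LRRK1 starts at 100919327 and ALDH1A3-AS1 at 100919391 on the opposite strand, so these genes overlap there. The strand setting is not stated, so reads of stretches that ALDH1A3-AS1 shares with LRRK1 or ALDH1A3 may have been assigned to either gene. Before ALDH1A3 on its own strand, the long non-coding RNA RP11-66B24.2 was listed at 0 in every parental library and at 0.578, 0.95 and 0.654 FPKM in resistant libraries (limma adjusted p = 0.00141). ALDH1A3-AS1, LRRK1 and RP11-66B24.2 were chosen after their values were seen. The RefSeq windows at the start of ALDH1A3 and between LRRK1 and ALDH1A3-AS1 are shown because ALDH1A3 fell while LRRK1 and ALDH1A3-AS1 both rose (GRCh38.p14, plus strand, GCGTG or its reverse complement in capitals).
ALDH1A3, chr15:100879581-100879880: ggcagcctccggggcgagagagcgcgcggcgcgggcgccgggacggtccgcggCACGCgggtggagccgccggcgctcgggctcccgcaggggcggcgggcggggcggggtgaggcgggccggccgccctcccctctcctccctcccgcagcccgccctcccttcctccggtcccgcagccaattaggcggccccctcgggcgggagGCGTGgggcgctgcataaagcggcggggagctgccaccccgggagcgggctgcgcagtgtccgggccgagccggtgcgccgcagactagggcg
LRRK1 and ALDH1A3-AS1, chr15:100919107-100919406: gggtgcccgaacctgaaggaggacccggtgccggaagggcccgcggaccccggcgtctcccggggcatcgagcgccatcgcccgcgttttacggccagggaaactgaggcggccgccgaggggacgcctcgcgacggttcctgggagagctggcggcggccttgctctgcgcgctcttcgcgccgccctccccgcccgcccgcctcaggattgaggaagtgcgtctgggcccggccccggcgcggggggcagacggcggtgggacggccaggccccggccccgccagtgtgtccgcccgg
The ALDH1A3 window had a GC content of 81.7% and 46 CpG sites, with matches at bases 54 and 208. The LRRK1 window holds the RefSeq start of LRRK1 at 100919357 and that of ALDH1A3-AS1 at 100919283, and had a GC content of 77.3%, 43 CpG sites and no match.

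**Figure D3:**
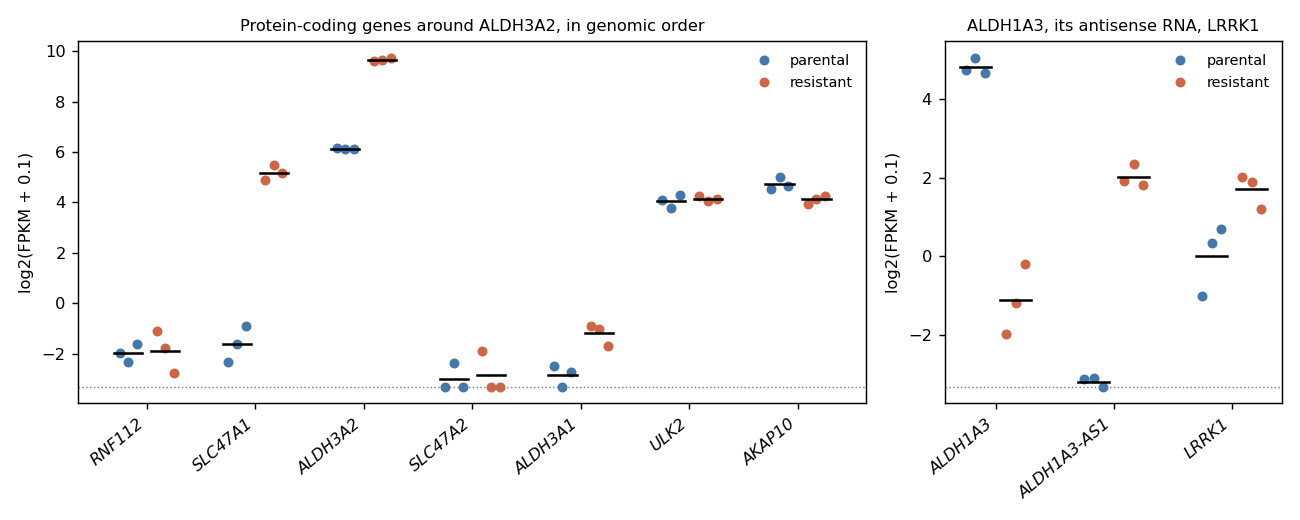
Levels as log2(FPKM + 0.1) of the protein-coding genes around ALDH3A2 in genomic order (left) and of ALDH1A3, ALDH1A3-AS1 and LRRK1 (right), with a point for each library, a black line for the mean of the log2 values and a dotted line where FPKM is 0. SLC47A1 (0.0968 to 0.432 against 29.8 to 44.7 FPKM) and ALDH3A2 (68.9 to 71.0 against 789 to 852 FPKM) were higher in resistant libraries and ULK2 overlapped, while ALDH1A3 and ALDH1A3-AS1 crossed over between the groups.

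Both mitochondrial acetaldehyde dehydrogenases fell. ALDH1B1, on chromosome 9, was at 66, 54.8 and 62.8 FPKM in parental and at 18.1, 22.0 and 22.5 FPKM in resistant libraries, a 2.93-fold lower level (61.2 ± 5.75 against 20.9 ± 2.41 FPKM, SD, n = 3 each; log2 fold change -1.55, SE 0.12, limma adjusted p = 0.000164). ALDH2, on chromosome 12, was at 13.0, 11.3 and 14.2 FPKM in parental and at 4.2, 4.93 and 4.3 FPKM in resistant libraries, a 2.87-fold lower level (12.8 ± 1.44 against 4.48 ± 0.397 FPKM, SD, n = 3 each; log2 fold change -1.5, SE 0.14, limma adjusted p = 0.000353). The groups did not overlap for either gene. A read-through gene on the same strand, RP11-162P23.2, shares 24532 bases with ALDH2 and fell too (4.98, 9.4 and 7.55 against 0.697, 2.23 and 3.82 FPKM; log2 fold change -1.89, limma adjusted p = 0.0418), so reads may have been split between them.

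ALDH7A1, also called antiquitin, oxidises the semialdehyde of the lysine pathway as well as betaine aldehyde, and its loss causes pyridoxine-dependent epilepsy. The gene lies on the minus strand of chromosome 5 (chr5:126531200-126595362). It was at 0.0903, 1.42 and 0.0287 FPKM in parental and at 24.6, 31.7 and 33.1 FPKM in resistant libraries. Parental replicates 0 and 2 were close to the level of a few reads and parental replicate 1 was well above them, while every resistant library was over 20 FPKM. The means were 0.513 ± 0.787 and 29.8 ± 4.53 FPKM (SD, n = 3 each), 58.1-fold higher, and the log2 fold change was 6.47 (SE 0.9, 95% interval 4.31 to 8.64, limma adjusted p = 0.00166). Without parental replicate 1 the log2 fold change was 7.57 and without parental replicate 2 it was 5.79. The processed pseudogenes ALDH7A1P1 to ALDH7A1P4 were at 0 to 0.131 FPKM in all libraries.

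**Figure D4:**
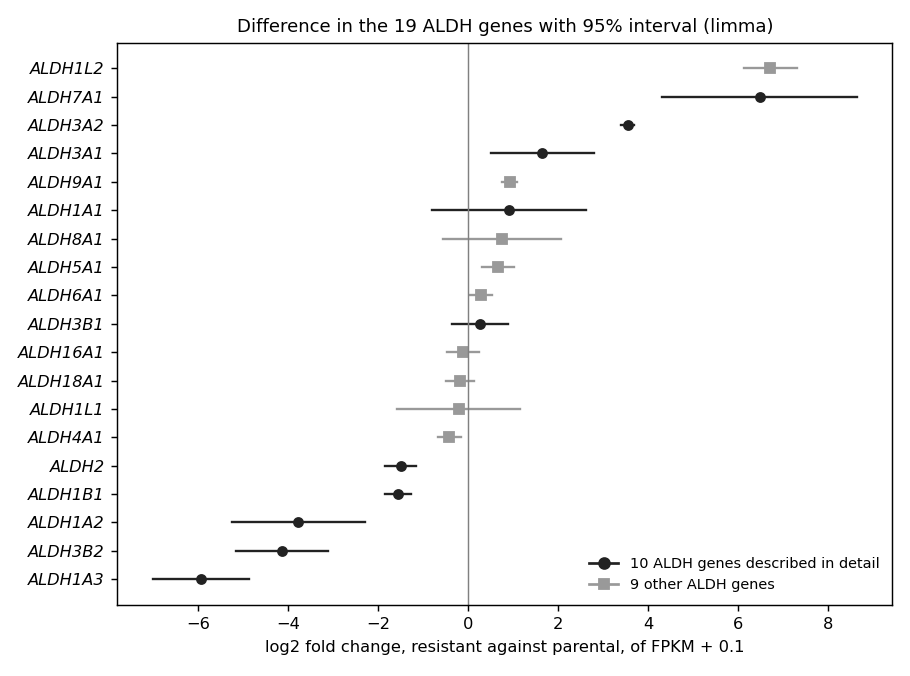
Log2 fold changes (resistant against parental, on FPKM plus 0.1) of the 19 aldehyde dehydrogenase genes with 95% intervals from limma, in black for the 10 genes and grey for the 9 others. ALDH3A2 was chosen by its increase in these libraries, so its interval is not a test. ALDH1L2, ALDH7A1 and ALDH3A2 lie farthest to the higher side at 6.71, 6.47 and 3.54, and ALDH1A3, ALDH3B2 and ALDH1A2 farthest to the lower side at -5.94, -4.13 and -3.77.

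The 9 remaining genes of the aldehyde dehydrogenase superfamily were set beside the 10. Of these, 3 rose, 1 fell and 5 did not pass the test, with a median log2 fold change of 0.29. Over all genes tested, 22.1% were called higher and 22.3% lower, with a median of -0.05. ALDH1L2, the mitochondrial 10-formyltetrahydrofolate dehydrogenase, was at 0.251, 0.111 and 0.174 FPKM in parental and 28.8, 31.2 and 25.8 FPKM in resistant libraries (log2 fold change 6.71, SE 0.24, limma adjusted p = 1.22e-05). ALDH9A1, which acts in carnitine synthesis, rose from 35.2, 35.4 and 38.0 FPKM to 66.2, 69.6 and 69.7 FPKM (log2 fold change 0.92, limma adjusted p = 0.000152). ALDH5A1, the succinic semialdehyde dehydrogenase of GABA breakdown, rose from 9.84, 9.96 and 10.3 FPKM to 13.0, 17.7 and 17.4 FPKM (log2 fold change 0.66, limma adjusted p = 0.0107). ALDH4A1, of proline breakdown, fell from 21.3, 18.3 and 19.4 FPKM to 13.7, 14.7 and 15.8 FPKM (log2 fold change -0.42, limma adjusted p = 0.0198). That call did not hold without the mean-variance trend, with the replicate block or without parental replicate 0. ALDH6A1, of valine breakdown, was at 35.2 to 37.1 FPKM in parental and 39.2 to 50.2 FPKM in resistant libraries (log2 difference 0.29, limma adjusted p = 0.0672). It passed the test with median-of-ratios scaling (adjusted p = 0.0227), quantile normalization (0.0204), rescaling to protein-coding genes (0.0255) and without resistant replicate 0 (0.0281). ALDH18A1, which makes proline precursors, differed by -0.18 on the log2 scale, ALDH16A1 by -0.12, ALDH8A1 by 0.75 and ALDH1L1, the cytosolic partner of ALDH1L2, by -0.21, with overlapping groups in each. Without parental replicate 1, ALDH18A1 was called lower (limma adjusted p = 0.0451).

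In parental cells ALDH18A1 was highest at 86.4 FPKM, followed by ALDH3A2 at 69.8 and ALDH1B1 at 61.2 FPKM, each separated from the next. ALDH3B2, ALDH9A1 and ALDH6A1 followed at 36.1 to 36.7 FPKM, where neighbours in the order overlapped. In resistant cells ALDH3A2 was highest at 812 FPKM, followed by ALDH18A1 at 75.6 and ALDH9A1 at 68.5 FPKM, which overlapped. ALDH7A1 at 29.8 and ALDH1L2 at 28.6 FPKM came next after ALDH6A1 and also overlapped. ALDH1A3, at the seventh place in parental cells, lay in resistant cells among the low genes ALDH8A1, ALDH1L1, ALDH3A1, ALDH1A2 and ALDH1A1, all under 1 FPKM on average. ALDH3A2 took 15.8 to 16.7% of the summed FPKM of the 19 genes in parental libraries and 69.2 to 72.1% in resistant libraries.

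Genes of the pathways around these enzymes were read from 4 lists. For each list the counts stand beside the share called over all genes, 22.1% higher and 22.3% lower. Of 26 genes that carry, convert or sense retinoids, 22 were tested, 9 rose and 3 fell (median log2 fold change 0.63). RXRA, the common partner of the retinoic acid receptors, was at 40.8, 40.3 and 39.8 FPKM in parental and 7.8, 8.13 and 8.78 FPKM in resistant libraries (log2 fold change -2.28, limma adjusted p = 1.48e-05). CRABP1, a cytosolic carrier of retinoic acid, was at 0.0816, 0 and 0 FPKM against 4.39, 5.32 and 6.6 FPKM (log2 fold change 5.49, limma adjusted p = 0.000105). RARG, a retinoic acid receptor, rose from 14.0, 12.1 and 14.2 FPKM to 31.3, 35.4 and 33.1 FPKM (log2 fold change 1.3, limma adjusted p = 0.000173). RARB fell from 3.22, 3.4 and 3.52 FPKM to 1.24, 1.57 and 1.64 FPKM (log2 fold change -1.14, limma adjusted p = 0.00478). RARA fell from 11.6, 10.6 and 13.1 FPKM to 4.62, 8.48 and 5.41 FPKM (log2 fold change -0.96, limma adjusted p = 0.018). Both are retinoic acid receptors, singled out after their values were seen, and with RXRA they were the 3 genes that fell.

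Of 16 genes that make or release fatty aldehydes and their lipid precursors, all were tested, 2 rose and 7 fell (median log2 fold change -0.31). FAR2, which reduces fatty acyl-CoA to fatty alcohol, rose from 5.49, 5.92 and 5.21 FPKM to 46.5, 50.1 and 44.1 FPKM (log2 fold change 3.06, limma adjusted p = 8.24e-06). GNPAT, the peroxisomal acyltransferase that starts ether lipid synthesis, rose from 12.3, 12.3 and 11.2 FPKM to 26.4, 31.6 and 35.2 FPKM (log2 fold change 1.37, limma adjusted p = 0.000334). SGPP1, a phosphatase of sphingosine 1-phosphate, fell from 12.7, 15.2 and 11.4 FPKM to 5.61, 5.15 and 5.33 FPKM (log2 fold change -1.26, limma adjusted p = 0.000735). SGPL1, the lyase that releases hexadecenal, a substrate of ALDH3A2, did not pass the test (14.7 to 20.8 FPKM against 18.8 to 23.1 FPKM, log2 difference 0.22, adjusted p = 0.325) and was singled out after its values were seen. The count of lower genes depended on the processing and was 3 or 4 under 9 of 16 alternatives. It was 4 without parental replicate 0 or 2 or without resistant replicate 0 or 2, and 3 without resistant replicate 1.

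Of 21 alcohol dehydrogenases, aldo-keto reductases and related redox enzymes, 14 were tested, 9 rose and 4 fell (median log2 fold change 1.13). AKR1C3, which reduces androstenedione to testosterone as well as lipid aldehydes, was at 0.125, 0.38 and 0.166 FPKM in parental and 79.3, 102 and 90.3 FPKM in resistant libraries (log2 fold change 8.2, limma adjusted p = 1.27e-05). AKR1C1 was listed at 0 in all parental libraries and at 4.71, 4.77 and 4.5 FPKM in resistant libraries (limma adjusted p = 3.87e-05). AKR1C2 was at 0.0893, 0.0952 and 0.261 FPKM against 9.57, 11.2 and 8.57 FPKM (log2 fold change 5.37, limma adjusted p = 6.93e-05). These AKR1C genes are close paralogues that can share reads, so the division of signal among them is uncertain.

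Of 14 genes of lysine and choline breakdown, the pathways of ALDH7A1, 12 were tested, 3 rose and 3 fell (median log2 fold change -0.3). DHTKD1, a subunit of the dehydrogenase that acts on 2-oxoadipate, rose from 29.7, 28.4 and 29.8 FPKM to 89.0, 104 and 97.9 FPKM (log2 fold change 1.72, limma adjusted p = 2.74e-05). AADAT, the aminotransferase that makes 2-oxoadipate, fell from 56.4, 59.0 and 59.3 FPKM to 5.41, 8.48 and 6.84 FPKM (log2 fold change -3.08, limma adjusted p = 4.29e-05). PHYKPL, which breaks down phosphohydroxylysine, fell from 37.2, 45.4 and 45.2 FPKM to 13.3, 15.9 and 17.9 FPKM (log2 fold change -1.44, limma adjusted p = 0.000421). AASS, the enzyme that starts lysine breakdown by the saccharopine route and was singled out after its values were seen, was at 3.29, 3.86 and 4.85 FPKM against 2.37, 3.13 and 2.31 FPKM and did not pass the test (log2 difference -0.6, adjusted p = 0.0752).

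**Figure D5:**
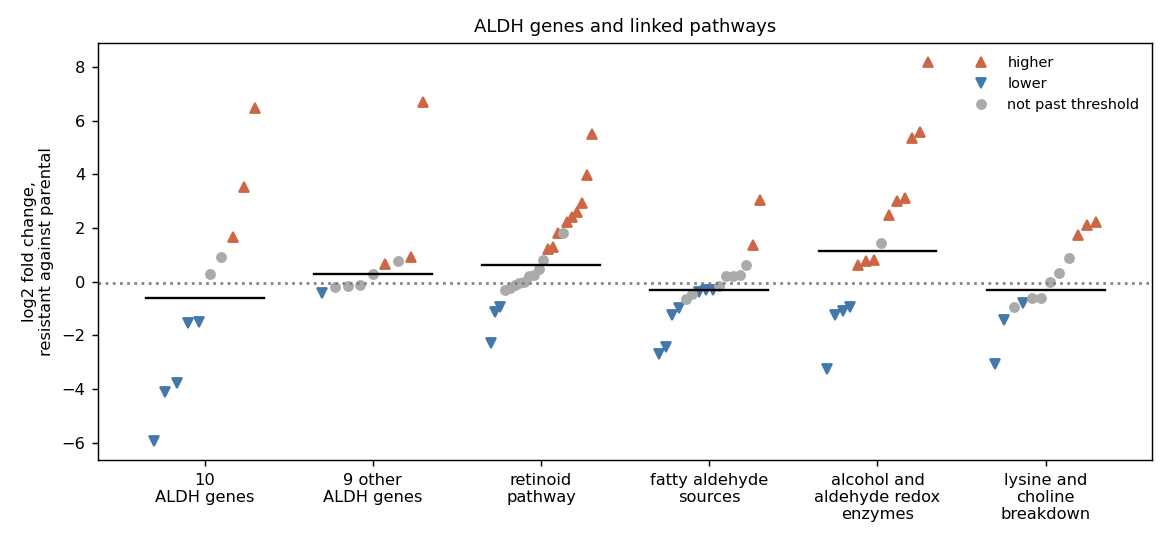
Log2 fold changes (resistant against parental) of each tested gene in the 10 aldehyde dehydrogenases, the 9 others and 4 pathway lists, with triangles for genes called higher or lower, grey points for the rest, black lines for list medians and a dotted line for the median of all genes tested, -0.05. Each list holds genes on both sides of 0, with medians from -0.61 for the 10 genes to 1.13 for the redox enzymes. ALDH3A2 was chosen by its increase, so its triangle is a description and not a test.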

How the data were processed

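RNA-Seq of 3 parental and 3 resistant libraries was used. The authors trimmed 50 bp single-end reads with TrimGalore 0.4.3, aligned them to GRCh38 with STAR 2.5.3 and made the deposited FPKM values with Cufflinks 2.2.1 on GENCODE 25. The submitters' processing notes instead name Trimmomatic 0.27, FastQC 0.10.1 and the mouse build mm10, while the gene identifiers are human. The table names no unit, and FPKM was taken from the methods and the values. The labels name 2 library kits, and the strand setting is not stated.

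Positions came from GENCODE 44 through 56980 matching identifiers, and 28 symbols stored as dates were restored. Libraries were compared with limma 3.58.1 (R 4.3.3) on log2(FPKM + 0.1), with a mean-variance trend, over the 24468 genes averaging 0.1 FPKM or more. The filter used the mean over all libraries, so a gene near 0 in parental cells could pass through the resistant libraries alone. This was so for ALDH3A1, ALDH1A1, CRABP1, ALDH1A3-AS1, AKR1C1 and RP11-66B24.2, among others. For such genes a call in the lower direction was hardly possible, which limits their p-values. Tests were two-sided, with Benjamini-Hochberg adjustment at 0.05. The code was tested on simulated data. A fold change on this scale understates the change of low genes. Depth was estimated from single-transcript genes, assuming fragments of 200 bases. The table holds no counts, so no counting interval was given. The 10 genes and all lists were chosen with earlier results of these data known. Named were all ALDH genes, the 3 genes with the smallest adjusted p of each pathway list, the 5 genes most like ALDH3A2 and the protein-coding genes within 250 kb of it; markers were also named, and all further genes, overlapping transcripts and pseudogenes included, were chosen after their values were seen. Same-numbered libraries deviated together with correlations of 0.00802, 0.0165 and -0.00301, so the numbers were not taken as pairs. Python 3.11.15, pandas 2.3.3 and matplotlib 3.10.9 were used.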

Additional observations from a re-analysis of the deposited data

How the results depend on the processing

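Each aldehyde dehydrogenase was recomputed under other pseudocounts, filters, scalings, without the variance trend, with a replicate block and without each library. Of 281 such values for the 19 genes, 265 kept their direction and side of the threshold or stayed within the spread, 6 lost the call, 5 gained it, 3 changed sign and 2 moved. ALDH1L1 and ALDH16A1 never passed the threshold. ALDH1L1 changed sign without parental replicate 2 (0.03) and without resistant replicate 1 (0.31), with a range of -0.48 to 0.31 when each library was left out, and ALDH16A1 without parental replicate 1 (range -0.24 to 0.03). ALDH3A2 ranged from 3.5 to 3.64. ALDH7A1 ranged from 4.45 to 7.57, ALDH1A3 from -6.4 to -4.38 and ALDH1A2 from -4.44 to -2.02, each smallest in size with a pseudocount of 1 FPKM. The replicate block, used although the numbers do not pair the libraries, left ALDH7A1 higher and 5 genes lower among the 9 other than ALDH3A2. Other counts that moved were as follows. With an added minimum of 2-fold, 3320 genes were lower, 1 other aldehyde dehydrogenase was higher and 0 lower, and 3 fatty aldehyde genes were lower. Without the trend, 0 other aldehyde dehydrogenases and 4 fatty aldehyde genes were lower. With the block these were 0 and 3, and with median-of-ratios scaling 4 fatty aldehyde genes were lower. With a filter at 1 FPKM, 5 retinoid genes were higher. Leaving out a library gave 4546 to 4990 genes higher, 4534 to 5162 lower, 0 to 2 other aldehyde dehydrogenases lower, 3 to 5 fatty aldehyde genes lower and 7 to 10 redox genes higher. Among the 9 genes other than ALDH3A2, 2 were higher and 5 lower whichever library was left out. The median of all genes was -0.07 to 0.04 under the other scalings and -0.09 to 0.05 under the other filters. Values near 0 rest on few reads, which limits ALDH1A1, ALDH3A1, ALDH8A1 and ALDH1L1.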

Other observations

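Values of some genes that share a locus with an aldehyde dehydrogenase are given here. ENTPD5, beside ALDH6A1, fell from 23.0, 20.9 and 23.1 FPKM to 11.3, 9.78 and 8.35 FPKM (log2 fold change -1.19, limma adjusted p = 0.000714), while ALDH6A1 was at 35.2 to 37.1 FPKM in parental and 39.2 to 50.2 FPKM in resistant libraries. C12orf45, which overlaps ALDH1L2 on the opposite strand, fell from 37.1, 36.2 and 39.3 FPKM to 22.9, 28.2 and 25.1 FPKM (log2 fold change -0.57, limma adjusted p = 0.00476). ACAD10, beside ALDH2, was at 29.3 to 33.0 FPKM against 27.8 to 35.1 FPKM (log2 difference -0.02, limma adjusted p = 0.908). PIH1D1 and RPL13A, beside ALDH16A1, differed by 0.05 and -0.05 on the log2 scale and did not pass the test (limma adjusted p = 0.71 and 0.634). These genes were chosen after their values were seen.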
